A study of Homo sapiens with 22 samples.

Results

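Cluster 4 of the treated WM989 cells is one of 2 clusters that the deposited cell labels call primed, and nearly all of its cells came from plates that received TGFB1. Its members were chosen by the deposited cluster number alone. The rule found 3270 cells of the 40021 in the treatment experiment and of the 54001 in all 3 single-cell experiments. The second primed cluster, cluster 10, held 807 cells, and the other 11 clusters together held 35944 non-primed cells. Of these, cluster 3, with 4007 cells, is described beside it because it too was made up mostly of TGFB1-treated cells.

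WM989 is a melanoma cell line with a BRAF mutation. In melanoma, most cells keep a melanocyte program driven by the transcription factors SOX10 and MITF, while rare cells lose much of it, take on mesenchymal genes and survive BRAF and MEK inhibitors, and the study calls the latter cells primed. TGF-β ligands bind a pair of receptor kinases that phosphorylate SMAD proteins, which then enter the nucleus and switch on matrix genes, secreted factors and the inhibitors that turn the signal down again. In epithelial and neural crest-derived tumors this signal is known for inducing an epithelial-to-mesenchymal transition (EMT).

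All cells of the treatment experiment were WM989 A6-G3, a clone made by repeated single-cell bottlenecks, and all carried a lentiviral library of transcribed lineage barcodes. Cells grown from one well were split over 4 plates and left untreated, given recombinant TGFB1, given the TGF-β receptor inhibitor LY2109761 (TGFBRi) or given the PI3K inhibitor GDC-0941 (PI3Ki) for several days, and this was done in 2 parallel replicates, called r1 and r2 in the cell labels. The sample labels name these replicates Mix and Primed, and which is r1 is not given, so r1 and r2 are used here. The experiment asked how each treatment shifts cells between the drug-susceptible and the primed state. Further samples used below are untreated WM989 and WM983B cells, each a clone of its melanoma line, and ATAC-seq of sorted WM989 cells.

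The 8 treatment libraries held 3692 to 6273 cells each, with a median of 13013 to 21720 unique molecular identifiers (UMIs, single counted transcripts) per cell. A cell barcode that occurred in more than 1 library was carried by 388 of the 40021 cells (0.969%) and by 34 of the cluster 4 cells (1.04%). With these cells left out, a choice made after seeing the data, the counts of higher and lower genes given below became 463 and 345. Expression is given as CPM, the UMIs of a gene summed over the cells of a group, divided by all UMIs of these cells and scaled to a total of 1000000 UMIs. Since the authors made the clusters from these same counts, no test was run of cluster 4 against other cells, and all such values are descriptions in r1 and r2. Intervals are exact 95% intervals, and they and the limits set for a count of 0 cover counting error only.

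The label was checked against the markers given with the cluster, which were drawn from these same cells and so describe it only. Of the 7 markers, COL1A1, SPOCK1, AQP1, IL11, BGN, PMEPA1 and BASP1, each was higher in cluster 4 than in the non-primed cells by at least 36-fold in both replicates. These non-primed cells come from all 8 libraries, 6 of which had no TGFB1, and against the non-primed cells of the TGFB1 libraries alone the ratios were smaller. By the replicate where it was smaller, the log2 ratio of PMEPA1 was then 3.03 in place of 5.20, that of COL1A1 5.87 in place of 7.74, that of IL11 5.25 in place of 7.31, that of SPOCK1 5.91 in place of 7.84, that of BGN 5.09 in place of 6.21 and that of BASP1 4.83 in place of 5.56. Of genes described further below, FN1 had 3.58 in place of 5.62 and AXL 3.43 in place of 5.35. The melanocyte genes SOX10, MITF, PMEL, MLANA and DCT were lower than in the non-primed cells in both replicates but not absent.

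Cluster 4 was found almost only after TGFB1. In the TGFB1 libraries it held 1548 of 5419 cells in r1 (28.6%, 95% Clopper-Pearson interval 27.4 to 29.8) and 1706 of 5615 cells in r2 (30.4%, 29.2 to 31.6). In the untreated libraries it held 5 of 4152 cells (0.120%) and 6 of 3692 cells (0.163%), and in the PI3Ki libraries 3 of 3862 (0.0777%) and 2 of 5779 (0.0346%). No cluster 4 cell was found among 5229 and 6273 cells given TGFBRi, which allows a share of up to 0.0574% and 0.0478% (3 cells). The TGFB1 libraries did not overlap with the others. The share was 29.5% ± 1.28 (SD, n = 2) with TGFB1 and 0.0659% ± 0.0665 (SD, n = 6) in the other libraries, a difference of 29.4 percentage points. It is given with no test, since the cluster was chosen for description with this pattern known.

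The other primed cluster was distributed differently. Cluster 10 held 2.14% and 4.31% of the untreated cells, 2.26% and 4.32% of the TGFBRi cells, 0.570% and 1.18% of the PI3Ki cells, and 0.535% and 0.908% of the TGFB1 cells, a higher share in r2 than in r1 under each treatment. Cluster 3, which the cell labels count as non-primed, held 40.3% and 28.8% of the TGFB1 cells and at most 1.60% of the cells of any other library. Clusters 4 and 3 were therefore both clusters of TGFB1-treated cells, whereas cluster 10 was present under every treatment.

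**Figure D1:**
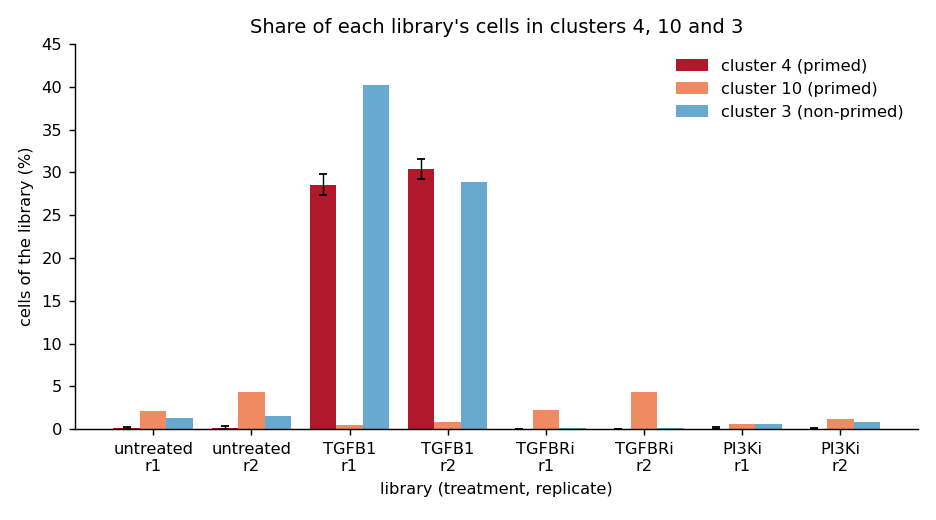
Percent of the cells of each of the 8 treatment libraries (x axis, treatment and replicate) that lie in cluster 4, cluster 10 and cluster 3 (bars). Error bars on cluster 4 are exact 95% binomial intervals; cluster 4 stands at 28.6% and 30.4% in the TGFB1 libraries and below 0.2% elsewhere.

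The 16 cluster 4 cells from libraries without TGFB1 carried part of the same program. Their summed level of FN1, fibronectin, was 5415 CPM with UMIs in all 16 cells, and that of COL1A1, the α1 chain of type I collagen, was 152 CPM (95% Poisson interval 109 to 207), with UMIs in 7 of them. PMEPA1, a TGF-β-induced membrane protein that restrains SMAD signaling, stood at 118 CPM (80.1 to 167) with UMIs in 10 cells, well under its level in the TGFB1-treated cluster. No UMI of SPOCK1 or FOXS1 was found in these 16 cells, where a count of 0 allows up to 11.4 CPM (3 UMIs). The nerve growth factor receptor NGFR stood at 91.3 CPM (58.5 to 136), with all its UMIs in 4 of the 16 cells.

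The share of a gene's transcripts that lay in cluster 4 was taken in the TGFB1 libraries. It had 24.7% of all UMIs of the r1 library and 25.6% of those of the r2 library. Its share was 97.3% and 98.3% for AQP1, 97.0% and 95.1% for SPOCK1, and 94.9% and 96.3% for COL1A1. The share was lower for genes that cells outside the cluster also expressed, namely 79.7% and 83.1% for FN1, 72.9% and 78.8% for PMEPA1, and 44.4% and 46.9% for SERPINE2. Of SOX10 transcripts the cluster held 6.43% and 6.08%, and of MLANA transcripts 2.89% and 3.21%.

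The 7 markers differed widely in level. PMEPA1 was the most abundant, at 1125 CPM in r1 (95% Poisson interval 1110.1 to 1140) and 1167 CPM in r2 (1152.8 to 1181), against 30.6 and 22.1 CPM in the non-primed cells. BASP1, a membrane-bound protein that organizes the cell cortex, was at 195 and 234 CPM against 2.34 and 4.96. COL1A1 was at 168 and 181 CPM against 0.783 and 0.662, a ratio of 215 and 273. These 3 markers belong to signal feedback, the cytoskeleton and the matrix.

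BGN, the small leucine-rich proteoglycan biglycan, stood at 132 and 160.1 CPM against 1.79 and 1.38 CPM. SPOCK1, the secreted proteoglycan testican-1, stood at 104 and 151 CPM against 0.254 and 0.659 CPM. AQP1, a water channel, stood at 75.3 and 77.6 CPM against 0.157 and 0.136 CPM, the largest ratio (481 and 571) by the replicate where it was smaller among the 6156 genes at 20 CPM in either group. Against the non-primed cells of the TGFB1 libraries alone its log2 ratio was 6.89 in place of 8.91. IL11, a cytokine of the IL-6 family and a classic TGF-β target, was the marker with the largest gap between the replicates, at 107 CPM (102 to 112) in r1 and 219.7 CPM (214 to 226) in r2, against 0.671 and 1.24 CPM in the non-primed cells.

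**Figure D2:**
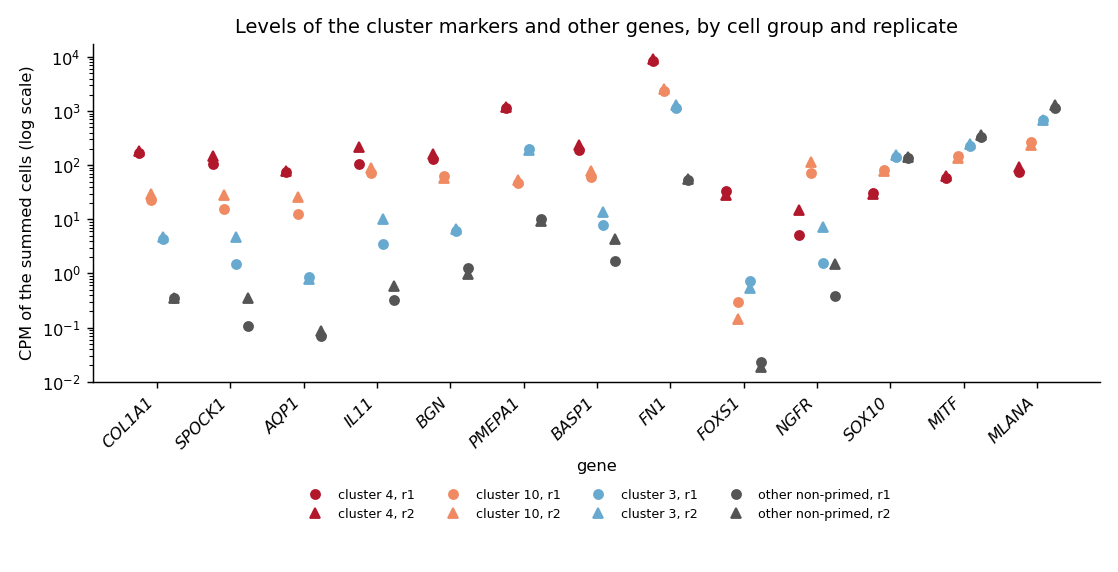
Level of each gene (CPM of the summed cells, log scale) in cluster 4, cluster 10, cluster 3 and the other non-primed clusters, with circles for r1 and triangles for r2. The 7 markers, FN1 and FOXS1 are highest in cluster 4, NGFR is highest in cluster 10, and SOX10, MITF and MLANA are lowest in cluster 4.

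Most single cells of the cluster held some but not all of the markers. PMEPA1 was seen in 99.2% and 99.4% of the cells, BASP1 in 80.4% and 85.1%, COL1A1 in 63.6% and 62.3%, SPOCK1 in 57.9% and 65.3%, BGN in 53.4% and 59.3%, AQP1 in 46.7% and 44.2%, and IL11 in 40.2% and 50.5%. Because cluster 4 was shallower than the other non-primed cells, with a median of 11107 and 11210 UMIs per cell against 16938 and 17818, every cell was also thinned to 5000 UMIs, which left out no cluster 4 cell and 33 cells in all. After thinning, the share was 96.3% and 97.1% for PMEPA1, 44.1% and 42.5% for COL1A1, 28.9% and 26.7% for AQP1, and 24.7% and 35.4% for IL11. The non-primed clusters other than cluster 3 had UMIs of these genes in 3.77% and 3.41% of thinned cells for PMEPA1, 0.144% and 0.190% for COL1A1, 0.0206% and 0.0519% for AQP1, and 0.130% and 0.271% for IL11. Only 1660 of 14579 and 2239 of 17358 of these cells came from the TGFB1 libraries. There free RNA of cluster 4 could reach them, and they were themselves given TGFB1, and the part of either was not tested. In those cells alone, with a median of 17788 and 17572 UMIs, the share was 24.8% and 18.7% for PMEPA1, 0.603% and 0.537% for COL1A1, 0.0603% and 0.134% for AQP1, and 0.724% and 0.716% for IL11.

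At the same thinned depth, 4 or more of the 7 markers were seen in 41.5% and 49.9% of the cluster 4 cells. The same was true of 3.95% and 6.51% of cluster 10 cells, 0.132% and 0.288% of cluster 3 cells and 0.00686% and 0.0173% of the other non-primed cells (0.0603% and 0.134% of those from the TGFB1 libraries). All 7 were seen in 0.514% and 1.40% of cluster 4 cells, and none in 0.835% and 0.350%. At the deposited depth, 4 or more were seen in 74.6% and 77.3% of the cluster 4 cells.

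The start regions of 3 markers and of TYR, the tyrosinase gene of pigment cells, are shown because the cluster is set apart by the first and TYR stood at 27.8 and 20.7 CPM in it against 66.1 and 66.6 CPM in the non-primed cells. They are RefSeq sequences of build GRCh38.p14 from 250 bases before to 50 after the annotated start, read 5′ to 3′ on the gene's strand, for IL11 at chr19:55370414-55370713 (minus strand), AQP1 at chr7:30911603-30911902 (plus strand), BASP1 at chr5:17216573-17216872 (plus strand) and TYR at chr11:89177625-89177924 (plus strand). Capitals mark the letters CAGAC or its complement GTCTG, the core of the SMAD-binding element, in the first 3, TGAGTCA, an AP-1 motif of the form TGANTCA, in IL11, and CATGTG, the M-box bound by MITF, in TYR.
IL11: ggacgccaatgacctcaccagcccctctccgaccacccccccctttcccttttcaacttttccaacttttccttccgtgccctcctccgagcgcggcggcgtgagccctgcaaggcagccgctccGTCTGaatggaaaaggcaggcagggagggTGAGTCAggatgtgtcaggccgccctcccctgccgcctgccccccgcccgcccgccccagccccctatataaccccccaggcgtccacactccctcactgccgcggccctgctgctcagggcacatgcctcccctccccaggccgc
AQP1: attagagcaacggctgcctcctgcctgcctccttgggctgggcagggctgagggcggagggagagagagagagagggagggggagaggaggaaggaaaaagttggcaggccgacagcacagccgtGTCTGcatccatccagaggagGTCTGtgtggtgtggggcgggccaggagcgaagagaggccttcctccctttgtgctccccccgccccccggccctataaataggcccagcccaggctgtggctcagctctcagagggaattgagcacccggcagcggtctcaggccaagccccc
BASP1: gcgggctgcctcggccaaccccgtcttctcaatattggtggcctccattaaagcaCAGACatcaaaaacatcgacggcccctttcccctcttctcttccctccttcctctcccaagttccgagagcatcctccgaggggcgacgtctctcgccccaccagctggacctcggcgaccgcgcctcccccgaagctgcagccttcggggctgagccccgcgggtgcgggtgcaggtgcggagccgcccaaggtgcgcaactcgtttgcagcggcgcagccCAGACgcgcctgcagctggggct
TYR: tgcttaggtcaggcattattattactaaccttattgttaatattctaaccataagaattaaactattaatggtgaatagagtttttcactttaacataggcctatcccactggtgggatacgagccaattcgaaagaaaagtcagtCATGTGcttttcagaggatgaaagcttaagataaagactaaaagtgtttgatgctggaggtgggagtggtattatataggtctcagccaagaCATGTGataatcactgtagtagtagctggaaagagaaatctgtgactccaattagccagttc

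In the IL11 window GTCTG lies 125 bases before the start and TGAGTCA 96 bases before it, in AQP1 GTCTG lies 125 and 104 bases before it, and in TYR CATGTG lies 104 and 12 bases before it. The IL11 window also holds the M-box letters on the other strand, as CACATG 25 bases after the start, which are not in capitals. The markers shown are a choice among the 7, and the motifs of COL1A1, SPOCK1, BGN and PMEPA1 are not given here. Short motifs are common. On either strand, CAGAC was found in 44.95% of all 27305 windows, in 41.8% of the 5012 windows of genes at 20 CPM, in 46.5% of the 359 windows matched for genes higher in cluster 4 and in 44.2% of the 258 matched for genes lower in it. The corresponding percents, in the same order, were 7.76, 4.03, 6.41 and 4.65 for TGANTCA, 11.2, 6.52, 6.96 and 9.30 for CATGTG, and 14.05, 10.7, 12.3 and 15.9 for GGAATG, the motif of the TEAD factors. No test was made of these shares, and several of them lie near those of the genes at 20 CPM, from which the genes of cluster 4 were drawn.

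Across the transcriptome, 6156 genes reached 20 CPM in cluster 4 or in the non-primed cells. Of these, 461 (7.49%) were more than 2-fold higher in cluster 4 in both replicates, with a median log2 ratio of 1.83 and 1.85, and 345 (5.6%) were more than 2-fold lower, with a median of −1.63 and −1.58. The median over all 6156 genes was −0.06 and −0.05. The replicates were alike, with Pearson's r of 0.990 between the log2 ratios of r1 and r2 across genes, which share the same libraries' depth and are not independent replicates. Of the 461 genes, 302 reached 20 CPM only in cluster 4, and of the 345 genes, 189 reached it only in the non-primed cells. Over all 6156 genes, 631 reached it only in cluster 4 and 554 only in the non-primed cells. A gene that passed the level filter in this way could be called in 1 direction only, though not all were past 2-fold. The counts of list members below, which are to be read against these 7.49% and 5.6%, therefore describe the lists and support nothing further. The gene lists were drawn up with earlier results of these data known.

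The largest ratios were ranked by the smaller value of both replicates among genes at 20 CPM or more in cluster 4 in r1 and in r2. Behind AQP1 came FOXS1, a forkhead transcription factor, at 32.9 and 28.3 CPM against 0.101 and 0.0549 CPM, and then SPOCK1 and COL1A1. MMP1, the interstitial collagenase, stood at 91.1 and 188 CPM against 0.501 and 0.959 CPM, but cluster 10 had more of it, at 137 and 205 CPM. The collagen gene COL10A1 stood at 29.8 and 24.3 CPM against 0.129 and 0.159 CPM, and COL5A1 at 33.9 and 42.7 CPM against 0.254 and 0.231 CPM.

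Further leading genes were FAP, a serine protease of activated fibroblasts, with ratios of 132 and 145, ITGA11, a collagen-binding integrin, with ratios of 106 and 90.4, and NR2F1, an orphan nuclear receptor, with ratios of 71.3 and 74.9. SPP1, osteopontin, reached 367 and 327 CPM against 5.44 and 4.68 CPM. VEGFC, a growth factor of lymphatic vessels, had ratios of 62.2 and 74.8, and PDGFRB, a PDGF receptor, 54.1 and 64.9. FN1 was the most abundant of the 20 leading genes, at 8573 and 9049.7 CPM against 174 and 144 CPM. IGFN1, SCG5, BGN, IL11 and the long noncoding RNA LUCAT1 are also among the 20, with ratios between 53.5 for LUCAT1 in r2 and 189.6 for IGFN1 in r1. Cluster 10 had more IGFN1 than cluster 4, at 57.4 and 72.3 CPM against 37.6 and 35.1. Its LUCAT1 level was near that of cluster 4, at 30.8 and 25.1 CPM against 35.8 and 35.9.

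Of the pathway itself, ligands and receptors were mostly low. Of 18 TGF-β ligand, receptor and latency genes, 5 reached 20 CPM, 3 of them only in cluster 4, and 4 were higher in cluster 4. TGFB1, the ligand, stood at 106 and 104 CPM against 17.2 and 15.6 CPM. TGFBR2, the receptor that binds the ligand first, stood at 28.5 and 27.9 CPM against 5.71 and 5.85 CPM, and TGFBR1, which it activates, at 51.1 and 69.8 CPM against 21.4 and 22.6 CPM. LTBP3, which holds the latent ligand in the matrix, had ratios of 4.52 and 4.82.

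Among 22 SMADs and TGF-β feedback and target genes, 17 reached 20 CPM, 9 of them only in cluster 4, and 10 were higher and none lower. The signal transducers themselves were not past 2-fold, with SMAD2 at 38.0 and 41.5 CPM against 40.0 and 40.9 and SMAD3 at 25.5 and 25.9 CPM against 16.1 and 14.2. Several inhibitors of the signal were higher, while SMURF1, SMAD6 and BAMBI, also listed, were not among the higher genes. SMAD7, the inhibitory SMAD, stood at 86.4 and 97.2 CPM against 7.63 and 8.48, SKIL, a SMAD co-repressor, at 106 and 126 CPM against 8.997 and 9.90, and SMURF2, a ubiquitin ligase for SMADs and receptors, at 145 and 152 CPM against 16.5 and 16.4. Most libraries behind these non-primed values had no TGFB1. Within the TGFB1 libraries cluster 4 held 65.3% and 67.1% of SMAD7 UMIs and 52.9% and 56.3% of SKIL UMIs, next to 24.7% and 25.6% of all UMIs. KLF10, ID1, ID2, SKI and TSC22D1 were higher by 2.05-fold (ID1, r2) to 3.33-fold (KLF10, r1). CCN2, the connective tissue growth factor and a textbook TGF-β target, stood at 22.7 and 19.2 CPM against 11.6 and 9.90 and was under the 2-fold limit in both replicates.

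Of 19 collagen chains, 8 reached 20 CPM, 6 of them only in cluster 4, and 7 were higher. COL5A2 stood at 52.3 and 54.7 CPM against 1.80 and 1.43, COL6A3 at 40.8 and 47.5 CPM against 1.19 and 0.850, and COL6A1 at 149 and 184 CPM against 22.4 and 19.6. COL1A2, the partner chain of COL1A1 in type I collagen, was only at 8.54 and 9.83 CPM against 0.163 and 0.188 and so fell under the level filter, as did COL3A1 at 0.0502 and 0.549 CPM. The cluster thus expressed type I collagen's α1 chain far above its α2 chain, although counts from the 3′ ends of transcripts are not corrected for how well each end is captured.

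Of 17 genes of collagen processing, 10 reached 20 CPM, 3 of them only in cluster 4, and 4 were higher, namely LOXL2, PLOD2, PCOLCE and P4HA2, with LOXL2, which crosslinks collagen, at 52.6 and 61.0 CPM against 3.89 and 4.23. Of 23 proteoglycans and other matrix proteins, 13 reached 20 CPM, 7 of them only in cluster 4 and 2 only in the non-primed cells, and 9 were higher and 2, LAMA4 and LUM, lower. THBS1, thrombospondin 1, which can release TGF-β from its latent form, stood at 108 and 110.0 CPM against 4.55 and 5.37. LAMA4, a laminin chain of blood vessel and muscle basement membranes, stood at 4.32 and 3.43 CPM against 25.5 and 26.7.

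Adhesion and actin genes were higher in part. Of 17 integrins and cadherins, 11 reached 20 CPM, 6 of them only in cluster 4, with 6 higher, among them ITGA5, the fibronectin receptor, at 46.3 and 55.7 CPM against 6.28 and 6.43, and N-cadherin, CDH2, at 59.9 and 67.8 CPM against 11.2 and 11.5. ITGA6, a laminin receptor, was lower, at 31.6 and 34.4 CPM against 71.3 and 76.0. Of 16 actin and contractile genes, 10 reached 20 CPM, 2 of them only in cluster 4, and 7 were higher, led by BASP1 and by TPM1, tropomyosin 1, at 445 and 414 CPM against 42.2 and 41.3. The smooth muscle genes ACTA2 and TAGLN remained low, at 5.28 and 4.12 CPM and at 2.51 and 3.48 CPM.

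The transcription factors known for EMT were not generally higher. Of 8, 4 reached 20 CPM and 1, PRRX1, was higher, at 229 and 200.3 CPM against 45.7 and 38.5. TWIST1 stood at 59.5 and 60.6 CPM against 42.7 and 43.995, ZEB2 at 103 and 105 CPM against 80.5 and 78.7, and SNAI2 at 39.1 and 42.2 CPM against 46.1 and 41.5. ZEB1, at 15.2 and 14.9 CPM against 7.36 and 7.63, was under the level filter. The mesenchymal genes of the cluster were therefore not accompanied by a higher level of SNAI2 or ZEB2 past 2-fold.

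Of 27 cytokines and growth factors, 16 were under the level filter and 11 reached 20 CPM, 8 of them only in cluster 4, with 9 higher and 2 lower. CCL2, which attracts monocytes, stood at 17.9 and 22.1 CPM against 0.0452 and 0.0347, VEGFA, the main angiogenic factor, at 75.2 and 117 CPM against 10.8 and 10.8, and PDGFA, a ligand of the PDGF receptors, at 72.9 and 72.8 CPM against 11.7 and 11.5. IGFBP7 reached 309.8 and 432 CPM against 10.1 and 12.7. VGF, a secreted neuropeptide precursor, was lower, at 134 and 393 CPM against 930.0 and 1480.1, as was GDF15, a stress-induced cytokine, at 52.8 and 45.1 CPM against 135 and 119.

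Of 16 genes known as primed-state markers, 11 reached 20 CPM, 7 of them only in cluster 4, with 8 higher and VGF lower. AXL, a receptor tyrosine kinase, stood at 37.0 and 48.3 CPM against 0.908 and 0.913, and NT5E, the ecto-5′-nucleotidase CD73, at 93.6 and 132 CPM against 13.2 and 23.3. JUN, an AP-1 factor, stood at 44.9 and 43.5 CPM against 4.47 and 4.56. EGFR, the epidermal growth factor receptor, was at 15.4 and 18.4 CPM against 1.196 and 1.25 CPM, and NGFR was at 5.02 and 14.9 CPM against 0.518 and 1.89, both under the level filter. FOSL1 and FGFR1 stood near the 2-fold limit, FOSL1 at 116 and 128 CPM against 54.6 and 67.6, and FGFR1 at 30.6 and 41.0 CPM against 17.7 and 17.7.

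Of 24 genes of melanocyte identity and pigmentation, 19 reached 20 CPM, 12 of them in both groups and 7 only in the non-primed cells, with 17 lower and none higher. SOX10 stood at 30.3 and 29.6 CPM (95% Poisson intervals 27.9 to 32.8 and 27.4 to 32.0) against 136 and 142, and MITF at 58.5 and 63.1 CPM against 319 and 356. PMEL, the structural protein of melanosomes, stood at 255 and 263 CPM against 2659.7 and 2804 CPM, MLANA at 74.1 and 91.8 CPM against 1110.2 and 1239 CPM, and DCT, a pigment enzyme, at 19.997 and 23.2 CPM against 306 and 322 CPM. Of the listed genes, GPNMB was among those that were not past 2-fold in both replicates, at 122 and 118 CPM against 241 and 247.

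Ranked by the replicate where the ratio was nearer to 1, the lowest ratios belonged to HPGD, which degrades prostaglandins, at 2.16 and 1.60 CPM against 35.5 and 26.95, and to SCML4, at 2.51 and 3.02 CPM against 42.7 and 49.1. ESRP1, a splicing regulator of epithelial cells, stood at 1.61 and 1.46 CPM against 21.9 and 20.2. RLBP1, a retinoid-binding protein, BAAT, a bile acid enzyme, BCAN, the proteoglycan brevican, and CAPN3, a calpain protease, were lower by 10.2-fold (CAPN3, r1) to 17.4-fold (RLBP1, r2). The others among the 20 lowest were LHFPL3-AS1, STK32A, FRMD4B, C2orf88, GJB1, HRK, TRIM63, PIR, GAPDHS and AC110285.1, next to DCT, MLANA and PMEL. LHFPL3-AS1 is an antisense RNA, and how the counting used strand is not given in the sources used here.

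Genes of DNA replication and mitosis were not past 2-fold in either direction. Of 15 replication genes, 14 reached 20 CPM, with none higher or lower and a median log2 ratio of −0.44 and −0.34, and of 15 mitosis genes all reached it, again with none past 2-fold and a median of 0.14 and 0.19. MKI67, the proliferation marker, stood at 242 and 269.8 CPM against 253 and 269. Of 8 D-type cyclins and CDK inhibitors, 3 reached 20 CPM, 1 of them only in cluster 4, and 2 were higher and none lower. CDKN1A, the CDK inhibitor p21, was higher, at 38.6 and 39.8 CPM against 1.36 and 1.21, and so was CCND1, cyclin D1, at 2529 and 2586 CPM against 447 and 484.

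Defining markers of other cell types were checked beside these matrix genes, since a melanoma culture could hold fibroblasts. The summed level of 7 fibroblast markers was 99.3 and 92.5 CPM against 29.99 and 27.2, and it came mostly from PDGFRB at 55.9 and 54.0 CPM and FAP at 27.2 and 23.1 CPM. THY1 was at 0 in both replicates, COL3A1 at 0.0502 and 0.549 CPM, DCN at 1.31 and 1.37 CPM, and LUM was lower than in the non-primed cells, at 12.7 and 9.97 CPM against 27.5 and 25.1. Of 11 endothelial, epithelial and leukocyte markers none reached 20 CPM. The endothelial sum of 12.4 and 9.47 CPM was nearly all PECAM1, with CDH5 and TEK at 0. The part of such cells in the result was not tested beyond these values.

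**Figure D3:**
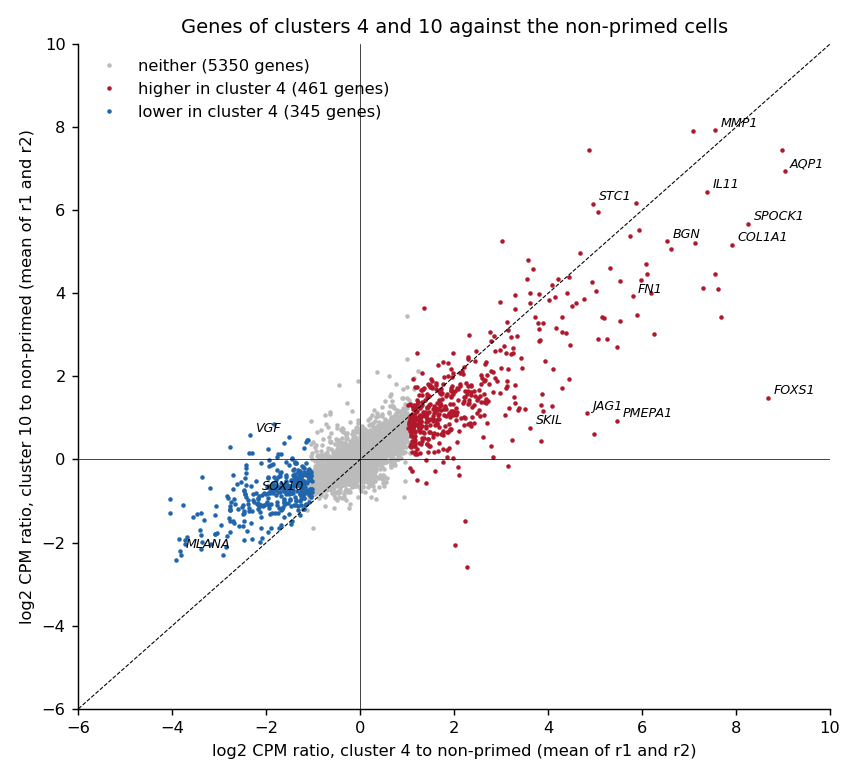
Each point is one of the 6156 genes, with its log2 CPM ratio of cluster 4 to the non-primed cells on the x axis and of cluster 10 to the same cells on the y axis (mean of r1 and r2). The 461 genes higher in cluster 4 (red) are mostly above 0 on both axes. FOXS1 and PMEPA1 lie far below the dashed line of equal ratios.

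Cluster 10 shared much of this program, mostly at lower levels. Both clusters were compared with the same non-primed cells, and cluster numbers were assigned from these counts, so values are given side by side without a test. Cluster 10 was pooled over all treatments here. Of its cells, 118 of 258 in r1 and 271 of 549 in r2 had been given TGFBRi. Of the 461 genes higher in cluster 4, 286 (62.0%) were also more than 2-fold higher in cluster 10 in both replicates, against 5.57% of the 6156 genes at large, and of the 345 lower genes, 88 (25.5%) were also lower there, against 1.49% at large. The median log2 ratio of the 461 genes was 1.28 and 1.31 in cluster 10, and that of the 345 genes −0.73 and −0.81. Set directly against cluster 10, 116 of 6136 genes (1.89%) were more than 2-fold higher in cluster 4 in both replicates and 160 (2.61%) lower. Among the 461 genes, 111 (24.1%) were above cluster 10 by that measure and 5 below it, and among the 345 genes, 120 (34.8%) were below it.

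The genes that stood most above cluster 10 were of several kinds. FOXS1, at 32.9 and 28.3 CPM in cluster 4, was at 0.299 and 0.144 CPM in cluster 10. PMEPA1 stood at 47.0 and 52.4 CPM in cluster 10 pooled over treatments, so that it was 23.9-fold (r1) and 22.3-fold (r2) higher in cluster 4. This ratio depends on that pooling, since PMEPA1 stood at 63.6 and 72.0 CPM in untreated cluster 10 cells. With TGFB1 it stood there at 166 and 161 CPM, and with TGFBRi at 7.33 and 11.9 CPM. NKD1, an inhibitor of Wnt signaling, stood at 32.5 and 39.3 CPM in cluster 4 and at 1.496 and 2.01 CPM in cluster 10, and JAG1, a Notch ligand, at 117 and 127 CPM and at 10.8 and 8.04 CPM.

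The secreted protease HTRA1 was higher in cluster 4 than in cluster 10 by 12.5-fold and 8.75-fold, and SKIL by 7.57-fold and 6.91-fold. SKIL in cluster 10 also varied with treatment. It stood at 16.1 and 22.6 CPM untreated, 47.7 and 39.0 with TGFB1 and 5.33 and 7.60 with TGFBRi. The cystatins CST1 and CST4 were also above cluster 10, but these paralogs are near-identical and their counts are uncertain. Of the collagen list, 5 of the 8 chains at 20 CPM were above cluster 10, COL1A1 with 168 and 181 CPM against 23.0 and 29.3, while COL6A1 and COL6A2 were not, COL6A1 with 149 and 184 CPM against 304 and 272. Other markers of the cluster were closer, such as IL11 with 107 and 219.7 CPM against 72.1 and 87.5, and BGN with 132 and 160.1 CPM against 62.8 and 56.8.

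Other genes stood below cluster 10. NGFR was at 5.02 and 14.9 CPM in cluster 4 and at 73.0 and 117 CPM in cluster 10. VGF was at 134 and 393 CPM against 1436 and 2140 CPM, FGFR1 at 30.6 and 41.0 CPM against 95.7 and 93.0 CPM, and SRGN, the proteoglycan serglycin, at 17.3 and 34.5 CPM against 119 and 182 CPM. APOD, apolipoprotein D, showed the lowest ratio, with 2.71 and 2.70 CPM against 57.7 and 44.3 CPM. A2M, FGFBP2, LAMA4, SLC7A11 and MTSS1 were among the genes that followed. FOSL1 and JUN were also below cluster 10 but not past 2-fold, with FOSL1 at 116 and 128 CPM against 172 and 169.8 CPM.

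The melanocyte genes were lower in cluster 4 than in cluster 10. Of the 17 listed genes at 20 CPM in that comparison, 12 were more than 2-fold below cluster 10 in both replicates. SOX10 stood at 80.8 and 77.9 CPM in cluster 10, MITF at 147 and 138 CPM and MLANA at 267 and 242 CPM, between the non-primed cells and cluster 4. By these genes and by FN1, at 2312 and 2515 CPM in cluster 10, cluster 4 lay further from the non-primed cells.

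The few cluster 10 cells of the TGFB1 libraries, 29 in r1 and 51 in r2, did not have the levels of cluster 4. Their PMEPA1 stood at 166 (95% Poisson interval 126 to 214) and 161 (131 to 196) CPM, above the 63.6 and 72.0 CPM of untreated cluster 10 cells, the 32.7 and 61.9 CPM of those given PI3Ki and the 7.33 and 11.9 CPM of those given TGFBRi. Their COL1A1 level rested on 4 and 1 UMIs, or 11.2 (3.06 to 28.7) and 1.62 (0.0411 to 9.05) CPM, against 32.2 and 41.0 CPM in untreated cluster 10 cells. STC1, stanniocalcin 1, stood at 30.9 (15.4 to 55.2) and 66.6 (47.8 to 90.4) CPM, against 323 and 259.9 CPM in untreated cluster 10 cells, 237 and 425 CPM with TGFBRi and 65.5 and 133 CPM with PI3Ki. Among these 4 treatments, PMEPA1 in cluster 10 was highest with TGFB1 and lowest with TGFBRi in both replicates. The clusters were called from these same counts, so levels below those of cluster 4 were favored by the assignment of these cells. No test was made of them.

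Cluster 3 lay between the other non-primed cells and cluster 4 in several of these genes. Against cluster 3, 372 of 6102 genes (6.1%) were more than 2-fold higher in cluster 4 in both replicates and 284 (4.65%) lower, and these held 311 (67.5%) of the 461 higher and 249 (72.2%) of the 345 lower genes. FN1 stood at 1163 and 1312 CPM in cluster 3, PMEPA1 at 197 and 194 CPM and BASP1 at 7.74 and 13.9 CPM. COL1A1 was at 4.29 and 4.79 CPM and AQP1 at 0.864 and 0.791 CPM, far below cluster 4. SOX10 stood at 142 and 154 CPM, near its level in the non-primed cells, whereas MITF stood at 230.4 and 251 CPM and MLANA at 695 and 686 CPM, between the non-primed cells and cluster 4. PMEPA1 was above its level in cluster 10 in these cells, and the other markers were not.

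TGFB1-treated cells outside the primed clusters showed a smaller share of the changes. Compared with untreated non-primed cells, the non-primed cells of the TGFB1 libraries were more than 2-fold higher in both replicates for 71 (15.4%) of the 461 genes and lower for 1 of the 345, against 1.33% and 0.0162% of the 6156 genes at large, with median log2 ratios of 0.38 and 0.33 over the 461 genes and −0.26 and −0.15 over the 345. In these cells PMEPA1 stood at 138 and 108 CPM with TGFB1 and 3.58 and 4.45 CPM without, FN1 at 715 and 630.2 CPM and 43.7 and 52.1 CPM, and SKIL at 31.2 and 33.8 CPM and 4.03 and 5.38 CPM. SOX10 was at 146 and 157 CPM with TGFB1 and at 136 and 135 CPM without. With the non-primed cells of the TGFB1 libraries alone as the reference, 368 genes were higher in cluster 4 and 318 lower, of which 358 and 270 belonged to the 461 and 345.

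By the authors' calls of the cell cycle phase, cluster 4 held more G1 and fewer S cells than the pooled non-primed cells, though not than each of their clusters. In r1, 53.0% of its cells (95% Clopper-Pearson interval 50.4 to 55.5) were called G1, 18.4% S and 28.6% G2M, and in r2 53.2%, 18.5% and 28.3%. The non-primed cells had 36.4% and 36.6% in G1, 36.5% and 34.9% in S and 27.1% and 28.5% in G2M. Cluster 10 had 55.4% and 64.1% in G1, and cluster 3 60.6% and 61.7% in G1 with only 8.15% and 9.78% in G2M. Phase calls were made from the same counts as the clusters, and the clusters differ in depth, so no test was made.

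Counted the other way, cluster 4 held 34.3% and 36.6% of the G1 cells of the TGFB1 libraries, 18.2% and 20.6% of their S cells and 30.4% and 30.02% of their G2M cells. The same genes were then compared within one phase. Among G1 cells alone, 448 (97.2%) of the 461 genes were still more than 2-fold higher in both replicates and 324 (93.9%) of the 345 still lower, where 8.22% and 6.64% of the 6156 genes at large were higher and lower.

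Some markers varied with phase inside the cluster. IL11 stood at 68.1 and 146 CPM in G1 cells, 111 and 196 CPM in S cells and 153 and 333 CPM in G2M cells, in the same order in both replicates. AQP1 was highest in G1, at 105 and 91.4 CPM, against 47.1 and 70.0 CPM in S and 54.4 and 63.6 CPM in G2M. FN1 was highest in G1 too, at 10384 and 10561 CPM against 6744 and 7296 CPM in G2M, and PMEPA1 stood at 1285 and 1356 CPM in G1. MKI67, which defines cycling cells, stood at 24.5 and 26.1 CPM in G1 and 557 and 654 CPM in G2M.

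Cluster 4 cells had fewer counts and fewer mitochondrial counts than the non-primed cells. The median was 3204 and 3263 genes per cell, with 7.76% and 7.79% of mitochondrial and 26.3% and 25.3% of ribosomal protein UMIs. The other non-primed cells had 11.1% and 10.6% of mitochondrial UMIs, and cluster 10 was like cluster 4, with a median of 11747 and 11220.0 UMIs per cell and 8.21% and 7.78% of mitochondrial UMIs. Within cluster 4 the depth ran from 5211 to 40189 UMIs in r1, and its median was 9436.5 and 9582 in G1, 12381 and 12408 in S, and 14294 and 14263 in G2M. The part of depth in the calls of the cluster was not tested, and CPM and the thinned values above are scaled for it.

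The primed signature score, a rank-based UCell score per cell that the authors computed from genes higher in primed cells, was described in cluster 4. In r1 it ran from 0.389 to 0.518 with a median of 0.452 and 10th and 90th percentiles of 0.428 and 0.479, and in r2 from 0.389 to 0.531 with a median of 0.457 and percentiles of 0.433 and 0.484. Cluster 10 had a slightly lower median, 0.440 and 0.444, but a wider spread, with an SD of 0.0431 and 0.0406 against 0.0195 and 0.0202 in cluster 4, and reached 0.555. It held cells of every treatment, whereas nearly all cluster 4 cells had been given TGFB1. The part of this in the wider spread was not tested. The SD was 0.0192 and 0.0204 in cluster 3, like that of cluster 4, and 0.0106 and 0.0112 in the other non-primed cells. Of cluster 10 cells, 38.4% and 37.2% lay above the median of cluster 4.

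Cluster 3 had a median score of 0.390 and 0.392, and 0.749% and 0.690% of its cells lay above the median of cluster 4. In the other non-primed cells the median was 0.377 and 0.378 and the share 0.0137% and 0.0173%. Within cluster 4 the score was nearly the same in all phases, with medians of 0.455 and 0.460 in G1, 0.449 and 0.452 in S and 0.452 and 0.457 in G2M. Across its cells the score's Spearman correlation was 0.194 and 0.154 with the UMI count, 0.416 and 0.376 with thinned FN1 counts, and −0.247 and −0.183 with MLANA counts (1556 and 1714 cells of the same libraries, given as a description). FN1, which the study names as a primed-state marker, may itself be one of the score's genes, so its correlation with the score is not independent. The 16 cells from libraries without TGFB1 had a median score of 0.461.

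**Figure D4:**
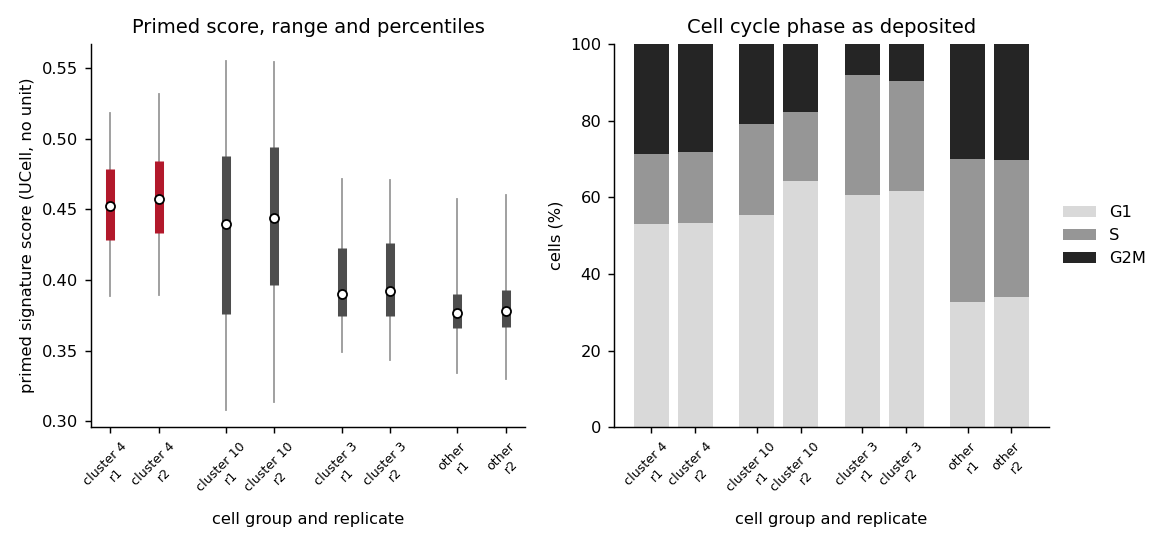
Left, the primed signature score (no unit) of cluster 4, cluster 10, cluster 3 and the other non-primed cells in r1 and r2, with thin lines for the range, thick bars for the 10th to 90th percentile and circles for the median. Right, the percent of cells of each group called G1, S and G2M; cluster 4 has medians of 0.452 and 0.457 and 53.0% and 53.2% of its cells in G1.

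Variation from cell to cell was described within the cluster. At 5000 UMIs per cell the Fano factor, the variance divided by the mean, which is 1 for counting noise alone, had a median of 1.07 and 1.08 over 3139 genes with at least 0.2 UMIs per cell in both replicates and of 1.22 and 1.24 over the 279 of them that were higher in the cluster. The Fano factor also rises with the mean level, for which these genes were not matched. The genes higher in cluster 4 with the widest spread were MT2A, a metallothionein, with Fano factors of 18.4 and 19.2, FN1 with 13.8 and 14.6, SERPINE2 with 11.4 and 11.6, and TFPI2, a serine protease inhibitor, with 12.9 and 11.4. MMP1 had 8.51 and 31.6, the largest gap between replicates among the 15 widest.

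Of the markers, IL11 was the most uneven. Its Fano factor was 3.15 and 5.28, 75.3% and 64.6% of the thinned cells had no UMI of it, and the tenth of cells with most IL11 held 68.7% and 62.5% of its UMIs, with up to 13 and 43 in a cell. COL1A1 had 2.21 and 3.64 and BASP1 1.28 and 1.36. PMEPA1 had a median of 5 and 5.5 UMIs per thinned cell, with 3.66% and 2.86% of cells at 0, and FN1 a median of 43 and 45 UMIs. The correlation across cells between the thinned counts of any 2 of the 7 markers lay between −0.03 and 0.21, with a median of 0.0785 and 0.0963 over the 21 pairs, which in counts this sparse is no finding.

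Untreated primed WM989 cells from another culture shared most of the cluster's genes. In the first experiment, where untreated WM989 cells were loaded in 8 wells by the cell labels and, by the study's methods, part of them had been sorted as EGFR/NGFR-high, the cell labels called 1704 cells of r1 and 1139 of r2 primed. Of the 461 genes, 325 (70.5%) were more than 2-fold higher in these primed cells than in the non-primed cells in r1 and in r2, which are 2 parts of 1 deposited sample, and 3 lower, against 7.49% of the 6156 genes at large, and of the 345 genes, 257 (74.5%) were lower, against 5.99% at large. In that experiment 11 of the 461 and 6 of the 345 genes had no matching symbol and are counted as not shared. COL1A1 stood at 105 and 218 CPM in those primed cells, close to the 168 and 181 CPM of cluster 4, and SPOCK1 at 76.4 and 113 CPM.

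Some genes set cluster 4 apart from the untreated primed cells as well. No FOXS1 UMI was found in the untreated WM989 primed cells, and PMEPA1 stood at 28.4 and 42.5 CPM, against 1125 and 1167 CPM in cluster 4. MMP1 went the other way, with 2174 and 2178 CPM against 91.1 and 188 CPM, as did CCL2 with 109 and 135 CPM and IGFBP7 with 1741 and 1318 CPM. NGFR was at 28.4 and 31.8 CPM, and SOX10, at 9.12 and 4.97 CPM, was below its level in cluster 4. The experiments were made with different kits and depths, and cell labels were assigned in each on its own, so the levels were not tested against each other.

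In WM983B, another melanoma line, with 731 primed cells in 1 library, fewer genes matched. There, 62 (13.4%) of the 461 genes were more than 2-fold higher in the primed cells, against 1.15% of the 6156 genes at large, and 51 (14.8%) of the 345 lower, against 1.07% at large. IL11 stood at 27.7 CPM in the primed and 4.93 CPM in the other WM983B cells, and PMEPA1 at 594 and 308 CPM. COL1A1 was near 0 in both, at 0.0819 and 0.167 CPM.

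Whole libraries were also tested, without the clusters as input. The UMIs of all cells in each library were added up, and TGFB1 and untreated libraries were compared with edgeR's quasi-likelihood test and Benjamini-Hochberg adjustment, with replicate as a block in all 8 libraries. Of 18389 genes, 2990 (16.3%) rose and 2334 (12.7%) fell at an adjusted p under 0.05. Of the 461 genes higher in cluster 4, 457 rose and none fell, the exceptions being TMSB10, RGS17, DDIT4 and BNIP3, and of the 345 lower genes 294 fell and 6 rose, namely PIK3R3, PHACTR1, PMP2, ERBB3, GDF15 and FXYD3. These counts include those that made the clusters, so the result is not independent of the choice of genes. The labels do not say how the libraries they call Mix and Primed differ, so the p-values measure only the spread between these libraries. In such sums, more cells of a type and more RNA per cell cannot be told apart. Without TGFB1 r1, 1971 genes rose and 1193 fell, without untreated r1 1441 fell and without untreated r2 1406 fell, while 436 to 442 of the 461 genes rose and 253 to 274 of the 345 fell with any 1 of the 4 libraries left out.

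PMEPA1 stood at 4.78 and 6.34 CPM in the untreated libraries, 382 and 363 with TGFB1, 0.849 and 1.32 with TGFBRi, and 3.07 and 4.43 with PI3Ki. The TGFB1 libraries were far above all others and the TGFBRi libraries lowest, and the log2 fold change of TGFB1 against untreated was 6.08 ± 0.116 (SE, edgeR quasi-likelihood, Benjamini-Hochberg adjusted p = 9.2e-20). COL1A1 stood at 1.099 and 1.59 CPM untreated, 43.4 and 46.0 with TGFB1, 0.715 and 1.41 with TGFBRi and 0.223 and 0.260 with PI3Ki, a log2 fold change of 5.06 ± 0.124 (edgeR, adjusted p = 4.3e-18). FN1 rose by 4.42 ± 0.131 on the log2 scale (edgeR, adjusted p = 7.2e-17). PMEPA1, COL1A1, FN1 and, below, IL11 were named as genes of cluster 4, whose cells are part of these sums. Their rise was favored by that choice, and their p-values support nothing further about the cluster.

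IL11 stood at 1.67 and 4.47 CPM untreated, 28.6 and 56.1 with TGFB1, 1.32 and 3.44 with TGFBRi and 0.357 and 1.40 with PI3Ki, a log2 fold change of 3.84 ± 0.112 (edgeR, adjusted p = 5.9e-17). FOXS1 had no UMI in the untreated libraries and stood at 8.52 and 7.13 CPM with TGFB1. Within each treatment IL11 was higher in r2 than in r1, as it was in cluster 4. EGFR rose from 1.41 and 1.66 CPM to 5.11 and 5.91 CPM (log2 fold change 1.84 ± 0.115, edgeR adjusted p = 2.2e-11). NGFR stood at 1.75 and 6.13 CPM untreated and 1.88 and 5.09 with TGFB1, and its log2 fold change of −0.14 ± 0.12 did not pass the test (edgeR adjusted p = 0.426).

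Of 23 melanocyte genes tested in whole libraries, 10 fell and 3 rose, where 12.7% of all genes fell and 16.3% rose, with a median log2 fold change of −0.15. MITF stood at 322 and 354 CPM untreated and 231 and 262 with TGFB1, and fell by 0.46 ± 0.0697 on the log2 scale (edgeR adjusted p = 2.2e-05). MLANA fell by 0.79 ± 0.078 (edgeR adjusted p = 4.6e-08). SOX10 stood at 135 and 129 CPM untreated and 117 and 118 with TGFB1, without overlap, but its log2 fold change of −0.17 ± 0.0663 did not pass the test (edgeR adjusted p = 0.0642). MITF, MLANA and SOX10 were among the genes lower in cluster 4, whose cells are part of these sums. A fall was favored by that choice, and their p-values support nothing further about the cluster.

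By list, to be read against the 16.3% of all genes that rose, the 12.7% that fell and a median log2 fold change of 0.01 over all 18389, 16 of 17 collagen chains tested rose and none fell, with a median log2 fold change of 2.49, and 17 of 21 SMAD, feedback and target genes rose and 1 fell, with a median of 0.80. The fibroblast markers moved in the same direction, with 3 of 5 tested higher, none lower and a median of 1.26, and their part in the result was not tested. Of 15 replication genes, 6 fell and 1 rose.

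Chromatin was measured in other cells that received no TGFB1, by ATAC-seq of WM989 cells in 4 sorts named Mix, NGFR-high, EGFR-high and EGFR/NGFR-high in the labels, with 3 libraries each. The study's methods describe the sort labelled Mix as negative for both markers, and the labels' name is used here. For each gene the highest fold enrichment of a MACS2 peak within 500 bp of its start was taken, with 1 where no peak was listed, and EGFR/NGFR-high libraries were compared with Mix libraries in limma. Of 13925 promoters, 91 (0.654%) were more open and 11 (0.079%) less open in EGFR/NGFR-high cells at a Benjamini-Hochberg adjusted p under 0.05. Of the 433 promoters of genes higher in cluster 4, 8 were more open and none less, and of the 320 promoters of lower genes none passed the test in either direction (2 more and 2 less open after quantile normalization). The median log2 difference was 0.14 over the 433, 0.02 over the 320 and 0.08 over all promoters, so that most promoters of the cluster's genes did not pass the test. Without replicate 1 of every sort, 59 promoters were more open, 5 of them among the 433, and without replicate 2 only 7 were less open.

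PCOLCE, whose product helps to mature collagen, had no peak listed in the 3 Mix libraries and fold enrichments of 19.3, 13.2 and 14.4 in the EGFR/NGFR-high libraries (log2 difference 3.95 ± 0.289, SE, limma adjusted p = 2.7e-05). FAP likewise had no peak in the 3 Mix libraries and 8.93, 7.09 and 7.44 in the EGFR/NGFR-high libraries (2.96 ± 0.240, limma adjusted p = 7.1e-05), and ANXA1, annexin A1, followed the same pattern (2.74 ± 0.262, limma adjusted p = 0.00027). For these 3, values in the Mix libraries were set to 1, so that the size of the difference rests on that choice. THBS1 had peaks in all libraries, with 8.06, 5.18 and 7.26 in Mix and 26.5, 25.5 and 22.3 in EGFR/NGFR-high (1.88 ± 0.227, limma adjusted p = 0.0022). IGFBP7, NUAK1, SMAGP and SERPINE2 complete the 8, SERPINE2 with 24.6, 23.1 and 26.6 in Mix and 47.9, 43.5 and 36.7 in EGFR/NGFR-high (0.78 ± 0.136, limma adjusted p = 0.0304).

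Of the 7 markers, none passed this test. IL11 came closest, with 4.03, no peak and 7.26 in Mix and 20.8, 20.3 and 12.4 in EGFR/NGFR-high (log2 difference 2.50 ± 0.561, limma adjusted p = 0.0848). COL1A1 was open in every library, with 41.2, 41.0 and 46.5 in Mix and 61.9, 54.8 and 62.0 in EGFR/NGFR-high (0.47 ± 0.134, limma adjusted p = 0.188). BASP1 had 4.03, no peak and 5.32 in Mix and 8.03, 9.92 and 7.44 in EGFR/NGFR-high (1.60 ± 0.487, limma adjusted p = 0.228), and BGN a log2 difference of 1.47 ± 0.586 (limma adjusted p = 0.400). The EGFR/NGFR-high libraries of IL11, COL1A1 and BASP1 did not overlap with the Mix libraries.

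PMEPA1 was also open in every library, with 38.1, 29.2 and 34.4 in Mix and 53.6, 45.4 and 34.7 in EGFR/NGFR-high (0.38 ± 0.175, limma adjusted p = 0.460), and SPOCK1 was open to the same degree in both, with 12.1, 11.8 and 8.23 in Mix and 13.7, 10.9 and 7.94 in EGFR/NGFR-high (0.00 ± 0.257). AQP1 had a peak in 1 of the 3 EGFR/NGFR-high and in none of the 3 Mix libraries. MITF, SOX10 and TYR had log2 differences of −0.10, −0.08 and −0.09, none past the test. EGFR, one of the sort's own markers, was at 5.38, 4.24 and 5.81 in Mix and 14.0, 11.3 and 7.94 in EGFR/NGFR-high (1.08 ± 0.206, limma adjusted p = 0.0439), a call lost with a replicate block (limma adjusted p = 0.0548), without replicate 1 (0.439) and without replicate 2 (0.525).

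**Figure D5:**
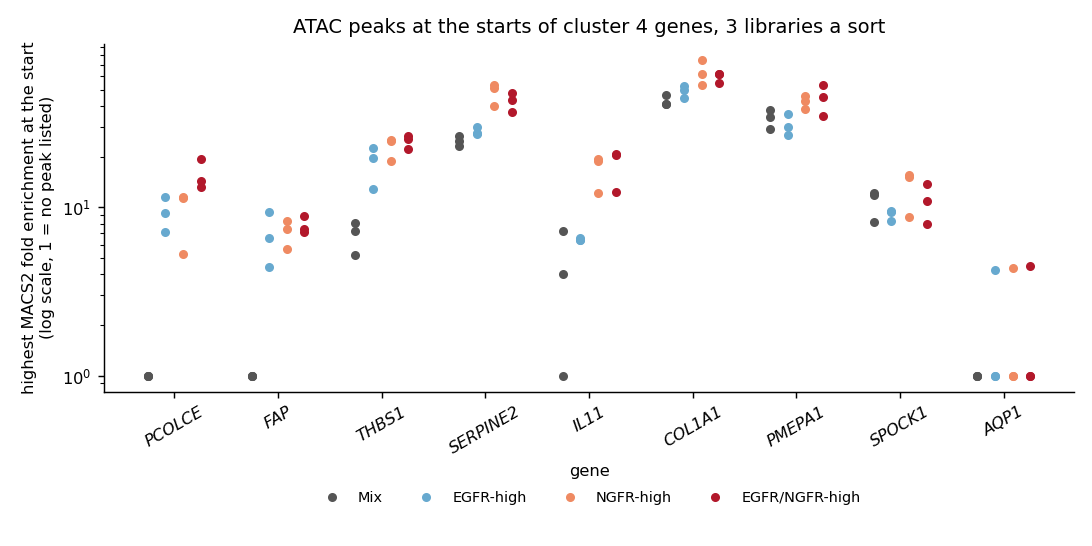
Highest MACS2 fold enrichment within 500 bp of the start (log scale, 1 where no peak was listed) for 9 genes higher in cluster 4, with a point for each of the 3 libraries of each of the 4 sorts. PCOLCE, FAP, THBS1 and SERPINE2 passed the test of EGFR/NGFR-high against Mix; the other 5 did not.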

How the data were processed

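The deposited single-cell values are UMI counts by gene and cell, which the authors obtained with Cell Ranger (version not given in the sources used here) on hg38, aggregated without depth normalization and filtered in Seurat on gene number and mitochondrial percent, which also removed likely doublets. Their labels for library, cluster, state and phase and the deposited UCell score were used as they stand, and no doublet caller was run. The deposited ATAC-seq files list peaks of single libraries with a fold enrichment ratio over background, made by the authors with Bowtie2 2.3.4.1, SAMtools 1.1 and MACS2 2.1.1.20160309. Where a peak had more than 1 summit, the highest was kept.

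Counts were summed per group and scaled to CPM in Python 3.11.15 (NumPy 2.4.6, SciPy 1.17.1, pandas 2.3.3). A gene was higher or lower at a ratio above 2 or below 0.5 in r1 and in r2, at 20 CPM or more in either group. Library sums went through edgeR 4.0.16 under R 4.3.3, with filterByExpr, TMM factors, treatment and replicate as terms. Cells of 1 well were split over the 4 treatments, and same-numbered libraries deviated together, with r between 0.256 and 0.365 in all 6 pairs. DESeq2 1.42.0 was an alternative. Promoters with a peak in at least 3 of 12 libraries were tested with limma 3.58.1. The tests were checked on simulated data. Starts came from canonical transcripts of the hg38 annotation, matched by symbol.

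Named genes are the markers, the 20 largest and 20 smallest ratios, genes the study names for these cells, and up to 5 members of each list, apart from a few list members chosen after their values were seen. One gene that the rule names is not reported here. Members and lists were chosen with earlier results of these data known.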

Additional observations from a re-analysis of the deposited data

How the results depend on the processing

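The difference in the cluster's share, the cluster ratios of 15 genes and the differences of 4 promoters that were recomputed kept their direction under the alternatives tried for them, and of the values that answer a comparison 78 stayed within 1.5 times of the reported one or on the same side of the threshold, while 14 moved. With a limit of 5 CPM, 850 genes were higher and 587 lower in cluster 4. Other references, G1 cells only, leaving out the deepest cells of each library, the mean of single cells or 1 replicate gave 368 to 516 higher and 318 to 400 lower genes, and none of the 461 and 345 turned. DESeq2 called 1983 genes higher with TGFB1 and 1784 lower, and of the 461 and 345 genes 447 rose and 289 fell. Without the replicate block edgeR called 2161 higher and 1438 lower, and of the 461 and 345 genes 434 rose and 255 fell. With 1 TGFB1 or untreated library left out (the lone library of an arm is assumed to vary like the others), 1971 to 2473 genes were higher and 1193 to 1688 lower, both lowest without TGFB1 r1.

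In ATAC-seq, less open promoters numbered 18 where a peak was required in all 12 libraries, 26 after quantile normalization (with 89 more open) and 18 within 1000 bp. Quantile normalization moved the median log2 difference of all promoters from 0.08 to −0.01, and 9 of the 433 promoters were then more open and 1 less, while of the 320 promoters 1 was less open with a peak in all 12 libraries, within 1000 bp and without replicate 1. With a replicate block 82 were more and 11 less open, and 9 of the 433 were more open; same-numbered libraries did not deviate together. Without 1 replicate number 59 to 130 were more open and 7 to 11 less, and 5 to 10 of the 433 were more open. The cause of these moves was not tested. Of the values of single genes 173 kept their side of the threshold and 3, all of the EGFR promoter, lost their call. The number of libraries limits the tests, and CPM under 1 in the shallower clusters rests on few UMIs.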
